A study of Mus musculus with 8 samples.

Results

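Macrophages and other leukocytes of the embryonic molar were followed through 29 genes with roles in these cells, among 35896 genes in the table of counts. The genes were taken by name: the lineage factor Spi1 and the growth factor receptor Csf1r, 7 pan-leukocyte genes (Ptprc, Cd53, Cd84, Laptm5, Vav1, Coro1a, Lcp1), the chains of complement C1q (C1qa, C1qb, C1qc), 5 Fc and innate receptors or their adaptors (Fcgr3, Fcer1g, Tyrobp, Trem2, Cd14), 4 adhesion and chemokine receptors (Itgb2, Itgam, Cx3cr1, Adgre1), 5 genes of uptake, lysosome and oxidant production (Mrc1, Cd68, Lyz2, Ctss, Cybb) and 3 further genes enriched in macrophages (Aif1, Ms4a7, Pf4). All 29 were found, and all 29 passed the filter on low counts. The RNA came from whole molar tooth germs, the buds that form the molar teeth, so fewer cells of a type and less RNA per cell cannot be told apart.

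The germs came from embryos that carry BRE-GFP, which marks cells with BMP-Smad signalling by green fluorescence, and all groups share this genotype. They were cultured in medium with fetal bovine serum for 1 day at E12.5 with DMSO (the solvent), with SB431542, which inhibits the type I receptors of TGF-beta and activin, or with SIS3, an inhibitor of Smad3. Germs of E13.5 with DMSO for 1 day served as controls of stage. The sources used here do not give doses, pooling of germs or whether replicates came from separate cultures. A cultured germ is cut off from the circulation of the embryo.

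Macrophages enter embryonic tissues from the yolk sac and the fetal liver and clear dying cells. PU.1, the protein of Spi1, is required for their formation, and the receptor encoded by Csf1r, which binds the growth factors Csf1 and Il34, keeps them alive. Resident macrophages make C1q, which tags targets for complement and for uptake, and carry surface proteins such as the F4/80 antigen (Adgre1) and the mannose receptor (Mrc1).

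The deposited table held 8 columns, 2 for each group. The totals of the paired columns differed by 0.00168% in the E12.5 DMSO group, 0.00212% in SB431542 and 0.00749% in E13.5, against 36.4% between the SIS3 columns. Over genes with 1 annotated transcript, the squared difference between paired columns had a median of 0.591, 0.570 and 0.555 times the variance of a random split of 1 set of reads (0.455 by sampling alone), and of 3.66 times in the SIS3 pair. The means over these genes were 2.19, 2.81 and 1.59 times (1 by sampling alone) and 24.4 times in the SIS3 pair, so some genes differed by more than a split would give. Genes with more transcripts differed by more: the medians were 0.853, 0.830 and 0.674 for 2 to 6 transcripts and 1.42, 1.41 and 1.07 for 7 or more, against 4.55 and 7.30 in the SIS3 pair. Each pair of those 3 groups was summed and counted as 1 sample, on the basis of the medians of the genes with 1 transcript. This left 1 library of E12.5 DMSO (30975010 counts), 1 of SB431542 (28161788), 1 of E13.5 (17519118) and SIS3 libraries 1 and 2 (5995709 and 9427262). Among the 29 genes the columns differed by more than 95% of random splits would for 7 genes in DMSO, 1 in SB431542 and 2 in E13.5. The widest was Adgre1 in DMSO, with 42 and 115 counts. Per the labels the SIS3 libraries come from the TruSeq RNA kit v2 and all others from the SMARTer Universal Low Input kit, so kit and SIS3 cannot be told apart. The SIS3 libraries were also the smallest, and 3 counts, the floor used for a gene at 0, are worth 0.0969 CPM (counts scaled to the library total) in DMSO and 0.5 CPM in SIS3 library 1. The dental mesenchyme genes Prrx1, Msx1 and Pax9 were present in every library. Their list of 12 summed to 3946 CPM in DMSO, 3958 in SB431542, 2869 in E13.5, and 3354 and 2915 in the SIS3 libraries. A list of 12 dental and oral epithelium genes differed more. It summed to 157 CPM in DMSO, 58.6 in SB431542, 198 in E13.5, and 80.7 and 296 in the SIS3 libraries. What such differences in tissue genes contributed to the values of the 29 genes was not tested.

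Stretches of promoter are shown first, since they let the purine-rich element that PU.1 is known to bind be seen in the genes described here. Its core, GAGGAA, was searched on both strands in the 250 bases before the start of transcription given by RefSeq (GRCm38.p6). A window was found for 22 of the 29 genes. Those not matched were Csf1r, Adgre1, C1qa, Cd14, Tyrobp, Spi1 and Itgb2. The core was present in 14 of the 22 genes, or 63.6%, against 25.8% of all 27026 genes with a window. The longer form GAGGAAGT, which contains the core, was present in C1qc, Pf4 and Vav1, or 13.6% against 2.79% of all genes. Each line below gives 60 bases, 5′ to 3′ on the strand of the gene, with the core in capitals (TTCCTC where it lies on the opposite strand). The first 4 genes were lower in the SIS3 libraries in the test given further on, and Vav1 and Pf4 hold the longer form. Cd68, whose window also holds the core, is shown as a gene with close CPM in the SIS3 and DMSO libraries. Whether the core goes with a difference between SIS3 and DMSO was not tested.
C1qb, chr4:136886201-136886260, minus strand: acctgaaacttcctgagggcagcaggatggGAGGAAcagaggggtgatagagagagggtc
C1qc, chr4:136893075-136893134, minus strand: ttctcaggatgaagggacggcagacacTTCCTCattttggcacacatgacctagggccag
Trem2, chr17:48346334-48346393, plus strand: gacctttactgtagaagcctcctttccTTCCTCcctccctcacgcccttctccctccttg
Ctss, chr3:95526595-95526654, plus strand: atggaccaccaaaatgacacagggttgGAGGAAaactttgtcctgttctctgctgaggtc
Vav1, chr17:57279040-57279099, plus strand: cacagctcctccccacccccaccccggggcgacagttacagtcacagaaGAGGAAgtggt
Pf4, chr5:90772375-90772434, plus strand: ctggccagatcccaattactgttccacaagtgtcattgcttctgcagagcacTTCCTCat
Cd68, chr11:69666361-69666420, minus strand: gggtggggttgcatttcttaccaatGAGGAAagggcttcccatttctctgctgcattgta
Lyz2, also lower in the SIS3 libraries, had no core in its window, while Mrc1 and Laptm5, lower too, had it. The core was also present in Ptprc, Cd53, Itgam, Fcgr3 and Aif1, which did not pass the test. These are matches of letters only. No binding was measured in the files used here.

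In the E12.5 DMSO library all 29 genes had counts, from 0.678 CPM (Aif1, 21 counts) to 47.6 CPM (Lcp1, 1474 counts), with a median of 4.20 CPM. Ordered by CPM per kilobase of the longest transcript, which allows levels of different genes to be compared, Lcp1 stood first at 12.4, followed by Lyz2 at 6.92, Cd68 at 6.30, Tyrobp at 5.89 and C1qc at 5.29. Lowest on this scale were Cd53 at 0.704, Itgam at 0.469 and Cybb at 0.272. The sum over the 29 genes was 192 CPM in DMSO, 179 in SB431542, 360 in E13.5, 78.7 in SIS3 library 1 and 79.2 in SIS3 library 2.

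**Figure D1:**
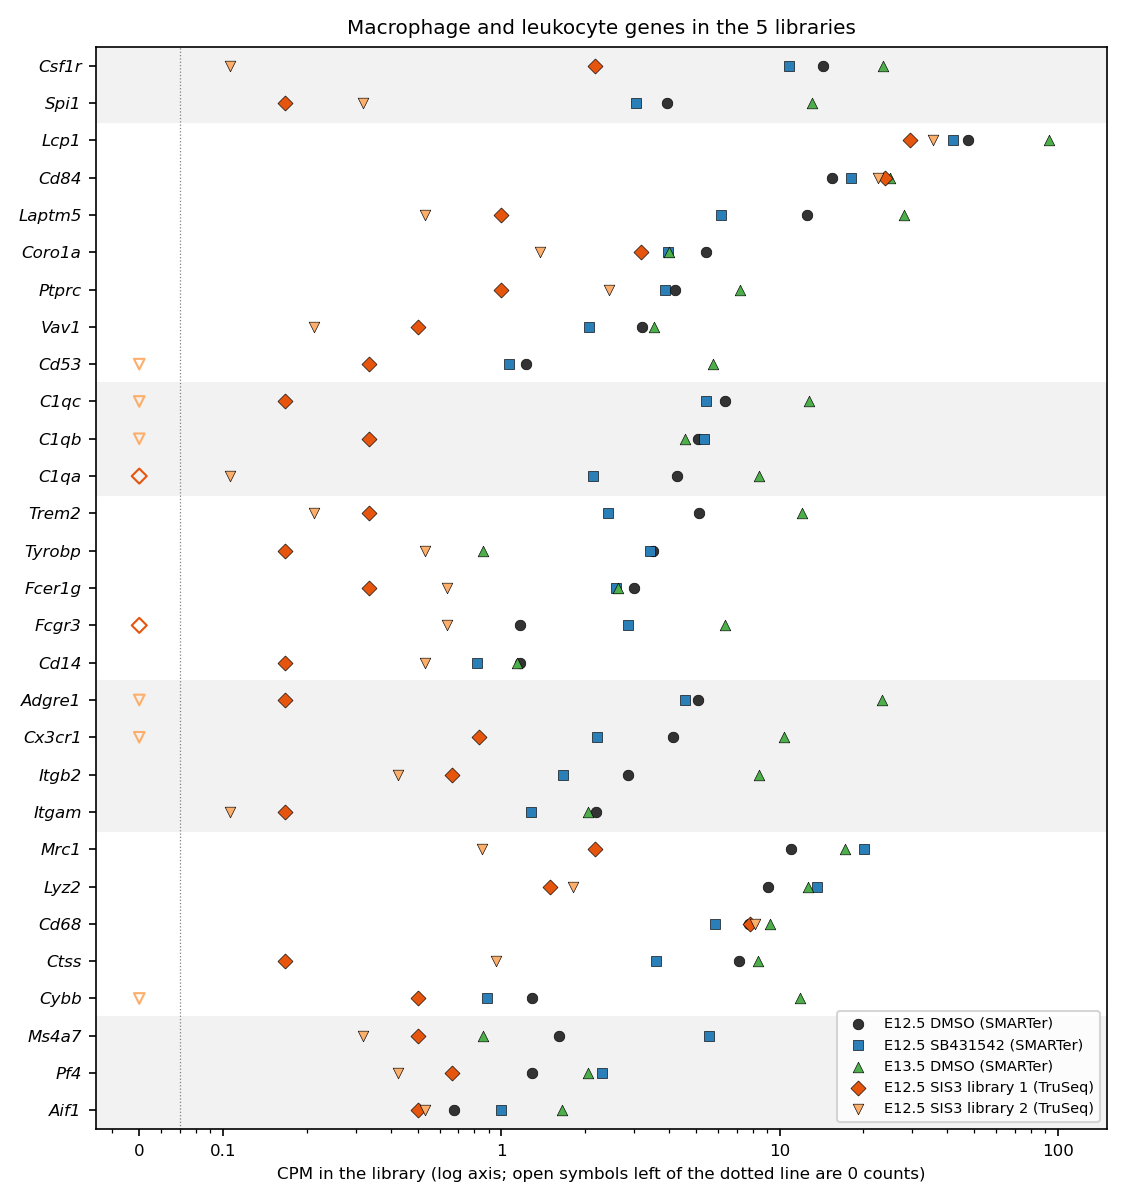
Level of each of the 29 genes (rows, shaded by role) in the 5 libraries, as CPM on a log axis, with open symbols left of the dotted line for 0 counts. For 27 genes both SIS3 libraries (diamonds and inverted triangles) lie left of the 3 SMARTer libraries, while Cd84 and Cd68 overlap them.

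The first comparison asked which of the genes differed between SIS3 and DMSO at E12.5. C1q, the PU.1 gene, the F4/80 gene, Trem2, the mannose receptor, lysozyme, Laptm5 and cathepsin S were low in both SIS3 libraries, and the genes for L-plastin, Cd84 and Cd68 were not among them. With edgeR's quasi-likelihood test and p-values adjusted by Benjamini-Hochberg over 19022 genes, 10 of the 29 were lower at an adjusted p under 0.05 (Adgre1, C1qa, C1qb, C1qc, Ctss, Laptm5, Lyz2, Mrc1, Spi1, Trem2) and 0 were higher. Of all genes tested, 3.03% were lower and 0.794% higher. At an unadjusted p under 0.05 there were 19 lower and 0 higher among the 29, against 11% and 5.82% of all genes. The median log2 fold change of the 29 was -2.99 (0 over all genes), and it was -2.71 with SIS3 library 1 alone and -2.99 with library 2 alone. In 27 of the 29 genes both SIS3 libraries lay below all 3 SMARTer libraries in CPM (21.9% of all genes did), and in 0 both lay above (21.8%). The exceptions were Cd84 and Cd68.

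Of the genes that define the lineage, Spi1 (chromosome 2, 91082390 to 91115756, plus strand) stood at 3.94 CPM in DMSO, 3.05 in SB431542 and 13.1 in E13.5, and at 0.167 and 0.318 CPM in the SIS3 libraries. The SIS3 libraries, with 1 and 3 counts, lay well under the other 3, and Spi1 was lower than in DMSO with a log2 fold change of -3.99 with an SE of 0.85 (edgeR, adjusted p = 0.0191, n = 2 against 1). The call of Spi1 was lost in DESeq2, with only the 2 groups fitted and after trends with GC content and length were removed. Csf1r stood at 14.3, 10.8 and 23.5 CPM in DMSO, SB431542 and E13.5, and at 2.17 CPM (13 counts) and 0.106 CPM (1 count) in the SIS3 libraries. Both SIS3 values were under all others but far from each other, and Csf1r did not pass (log2 fold change -3.87, 95% interval -7.34 to -0.40, adjusted p = 0.256). DESeq2 called it lower, with an adjusted p of 0.00959. Csf1r shares 14.6% of its 31-base sequences with its neighbour Hmgxb3, so the authors' counting could have divided reads between them. Hmgxb3 stood at 63.8 CPM in DMSO against 107 and 95.1 CPM in the SIS3 libraries. The sum of both stood at 78.0 against 109.6 and 95.3 CPM. Most of that sum is Hmgxb3, so it cannot show the level of Csf1r. What shared reads contributed to the low value of Csf1r was not tested.

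Among the pan-leukocyte genes the values diverged. Laptm5, a lysosomal membrane protein of blood cells (chromosome 4, 130913125 to 130936141, plus strand), stood at 12.53 CPM in DMSO, 6.18 in SB431542 and 28.0 in E13.5, and at 1.00 and 0.530 CPM in the SIS3 libraries. It was lower with a log2 fold change of -4.15 with an SE of 0.62 (edgeR, adjusted p = 0.00247), and it passed in all 15 alternative analyses that gave it a test. Vav1, a signalling protein of blood cells, stood at 3.20, 2.06 and 3.54 CPM in the SMARTer libraries and at 0.5 and 0.212 CPM in the SIS3 libraries (adjusted p = 0.0966, not called). Ptprc, the CD45 phosphatase of nearly all leukocytes, stood at 4.20, 3.87 and 7.19 CPM against 1.00 and 2.44 CPM. Its log2 fold change was -1.32, with an interval of -2.96 to 0.32. Coro1a, an actin regulator, had 5.46, 3.98 and 3.996 CPM against 3.17 and 1.38 CPM (-1.36). The tetraspanin gene Cd53 had 1.23, 1.07 and 5.77 CPM against 0.334 and 0 CPM, from only 2 counts in both SIS3 libraries together.

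Lcp1 and Cd84 stood apart from these. Lcp1, the actin-bundling L-plastin, had 47.6, 42.1 and 92.9 CPM in DMSO, SB431542 and E13.5 and 29.4 and 35.5 CPM in the SIS3 libraries, a log2 fold change of -0.62 (interval -1.33 to 0.08). Cd84, a receptor of the SLAM family, had 15.4, 18.1 and 24.9 CPM and 23.9 and 22.5 CPM, a log2 fold change of 0.52 (interval -0.40 to 1.44). Both SIS3 values of Cd84 were above DMSO and SB431542 and under E13.5. Of the 31-base sequences of Lcp1 14.4% occur in other annotated genes, and of those of Cd84 6.65%, so their counts could hold reads of other genes. Cd84 shares most of these with Olfr1459 (4.61%). Olfr1459 stood at 8.30 CPM in DMSO, 14.6 in SB431542, 96.8 in E13.5, and 11.7 and 16.1 in the SIS3 libraries. What shared reads contributed to the values of Cd84 was not tested.

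All 3 complement chains were nearly without counts in the SIS3 libraries. Their genes lie side by side on the minus strand of chromosome 4, with C1qb at 136880129 to 136886187, C1qc at 136889804 to 136893065 and C1qa at 136895917 to 136898803. C1qa stood at 4.29 CPM in DMSO, 2.13 in SB431542, 8.45 in E13.5 and 0 and 0.106 in the SIS3 libraries. C1qb stood at 5.07, 5.36, 4.57, 0.334 and 0 CPM in the same order. C1qc stood at 6.36, 5.43, 12.7, 0.167 and 0 CPM. Together the chains had 487 counts in DMSO, 364 in SB431542 and 451 in E13.5, but 3 and 1 in the SIS3 libraries, which is 15.7, 12.9 and 25.7 CPM against 0.5004 and 0.106 CPM. All 3 were called lower, with adjusted p-values of 0.00902 for C1qa, 0.0221 for C1qb and 0.00375 for C1qc. Fitted changes of genes with so few counts depend on the prior count of the fit. The counts themselves give ratios of DMSO over SIS3 of 66.2 for C1qa (exact 95% interval 11.7 to 2635), 39.1 for C1qb (10.6 to 325.6) and 98.1 for C1qc (17.4 to 3894), and these intervals cover counting error only. At the CPM of DMSO, 98.1 counts of C1qc would have fallen in the 2 SIS3 libraries, and 1 was seen.

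Of the Fc and innate receptors, Trem2 was the only one called. Trem2, a receptor for lipids that signals through Tyrobp, stood at 5.13, 2.41 and 11.99 CPM in DMSO, SB431542 and E13.5 and at 0.334 and 0.212 CPM in the SIS3 libraries, with 2 counts in each. Its log2 fold change was -4.33 with an SE of 0.85 (edgeR, adjusted p = 0.0116). Its adaptor gene Tyrobp stood at 3.52, 3.41 and 0.856 CPM against 0.167 and 0.530 CPM (adjusted p = 0.0995). Fcer1g, the common signalling chain of Fc receptors, had 3.002, 2.59 and 2.63 CPM against 0.334 and 0.636 CPM (-2.64, adjusted p = 0.168). Cd14, the co-receptor for bacterial lipopolysaccharide, had 1.16, 0.817 and 1.14 CPM against 0.167 and 0.530 CPM. Fcgr3, a low-affinity receptor for IgG, had 1.16, 2.84 and 6.34 CPM against 0 and 0.636 CPM. Fcgr3 shares 13.4% of its 31-base sequences with Fcgr2b, the inhibitory IgG receptor, and its values differed the other way: Fcgr2b stood at 2.00 CPM in DMSO and at 8.84 and 8.49 CPM in the SIS3 libraries. Summed, the pair had 3.16 CPM in DMSO, 6.29 in SB431542, 10.7 in E13.5 and 8.84 and 9.12 CPM in the SIS3 libraries. In the SIS3 libraries nearly all of that sum is Fcgr2b, so it cannot show the level of Fcgr3. Fcgr3 had only 0 and 6 counts there, and what shared reads contributed to its low value was not tested.

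Adgre1, the gene of the F4/80 antigen (chromosome 17, 57358691 to 57483527, plus strand), was the adhesion-type receptor with a call. It stood at 5.07 CPM in DMSO, 4.58 in SB431542 and 23.4 in E13.5, and had 1 count and 0 counts in the SIS3 libraries. The ratio of DMSO over SIS3 was 78.2, with an exact 95% interval of 13.8 to 3107 for counting error, and the adjusted p was 0.00381. Cx3cr1, the fractalkine receptor, stood at 4.13, 2.20 and 10.3 CPM against 0.834 and 0 CPM (adjusted p = 0.173). Itgb2, the beta 2 integrin chain, stood at 2.84, 1.67 and 8.45 CPM against 0.667 and 0.424 CPM (-2.48, adjusted p = 0.147). Its partner Itgam had 2.20, 1.28 and 2.05 CPM against 0.167 and 0.106 CPM, with 1 count in each SIS3 library (adjusted p = 0.0961). Itgam shares 67.2% of its 31-base sequences with the annotated gene Gm49368, and the sum of the pair, 2.20 CPM in DMSO and 0.167 and 0.106 CPM in the SIS3 libraries, showed the same gap.

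The uptake and lysosome genes split into 3 that were called, 1 that was not and 1, also not called, with close CPM in SIS3 and DMSO. Mrc1, the mannose receptor (chromosome 2, 14229392 to 14332057, plus strand), stood at 10.98 CPM in DMSO, 20.03 in SB431542 and 17.2 in E13.5 and at 2.17 and 0.849 CPM in the SIS3 libraries, a log2 fold change of -2.99 with an SE of 0.61 (edgeR, adjusted p = 0.0165). Lyz2, the lysozyme of myeloid cells, stood at 9.10, 13.6 and 12.6 CPM against 1.501 and 1.80 CPM (-2.52, adjusted p = 0.0304). Lyz2 was not called in DESeq2 or when a mean of 5 CPM was required. Nor was it called with only the SIS3 and DMSO groups fitted or after trends with GC content and length were removed. Lyz2 shares 32.8% of its 31-base sequences with Lyz1, and the sum of both was 9.10 CPM in DMSO against 1.67 and 2.55 CPM. Ctss, the lysosomal protease cathepsin S, stood at 7.13, 3.59 and 8.39 CPM against 0.167 and 0.955 CPM (-3.61, adjusted p = 0.0303). The call of Ctss was lost in 5 alternatives: in DESeq2 (adjusted p = 0.0693), with only the SIS3 and DMSO groups fitted (0.107), after trends with GC content and length were removed (0.0927), and without either E13.5 column (0.0502 and 0.0534). Cybb, a subunit of the NADPH oxidase of phagocytes, had 1.29, 0.888 and 11.9 CPM against 0.5 and 0 CPM, from 3 counts in the SIS3 libraries (adjusted p = 0.291). Cd68, a lysosomal glycoprotein of macrophages, had 7.75, 5.86 and 9.25 CPM against 7.84 and 8.17 CPM. Its log2 fold change was -0.03 (SE 0.58), with an interval of -1.27 to 1.22, so the fit allows a difference of up to about these sizes in either direction.

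The remaining genes had low counts. Aif1, which encodes the calcium-binding protein IBA1 of macrophages and microglia, stood at 0.678, 0.994 and 1.66 CPM against 0.5 and 0.53 CPM. Ms4a7, a membrane protein enriched in macrophages, stood at 1.61, 5.57 and 0.856 CPM against 0.5 and 0.318 CPM. Pf4, a chemokine of platelets and of some macrophages, stood at 1.29, 2.31 and 2.05 CPM against 0.667 and 0.424 CPM. None of the 3 passed. In all, 17 of the 29 genes had 3 or fewer counts in SIS3 library 1 and 13 in library 2, where 2 and 6 of them stood at 0.

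All 29 genes together stood at 41.1% and 41.4% of their summed DMSO level in the SIS3 libraries. The composition of that sum differed between the libraries. Lcp1, Cd84 and Cd68, a trio chosen after their values were seen, made up 36.9% of the summed CPM of the 29 genes in DMSO, 37.0% in SB431542 and 35.3% in E13.5, but 77.5% and 83.5% in the SIS3 libraries. The other 26 genes summed to 121 CPM in DMSO, 113 in SB431542 and 233 in E13.5, against 17.7 and 13.05 CPM. Leaving out the trio after its values were seen lowers the share of the remainder, so these sums are a description only.

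**Figure D2:**
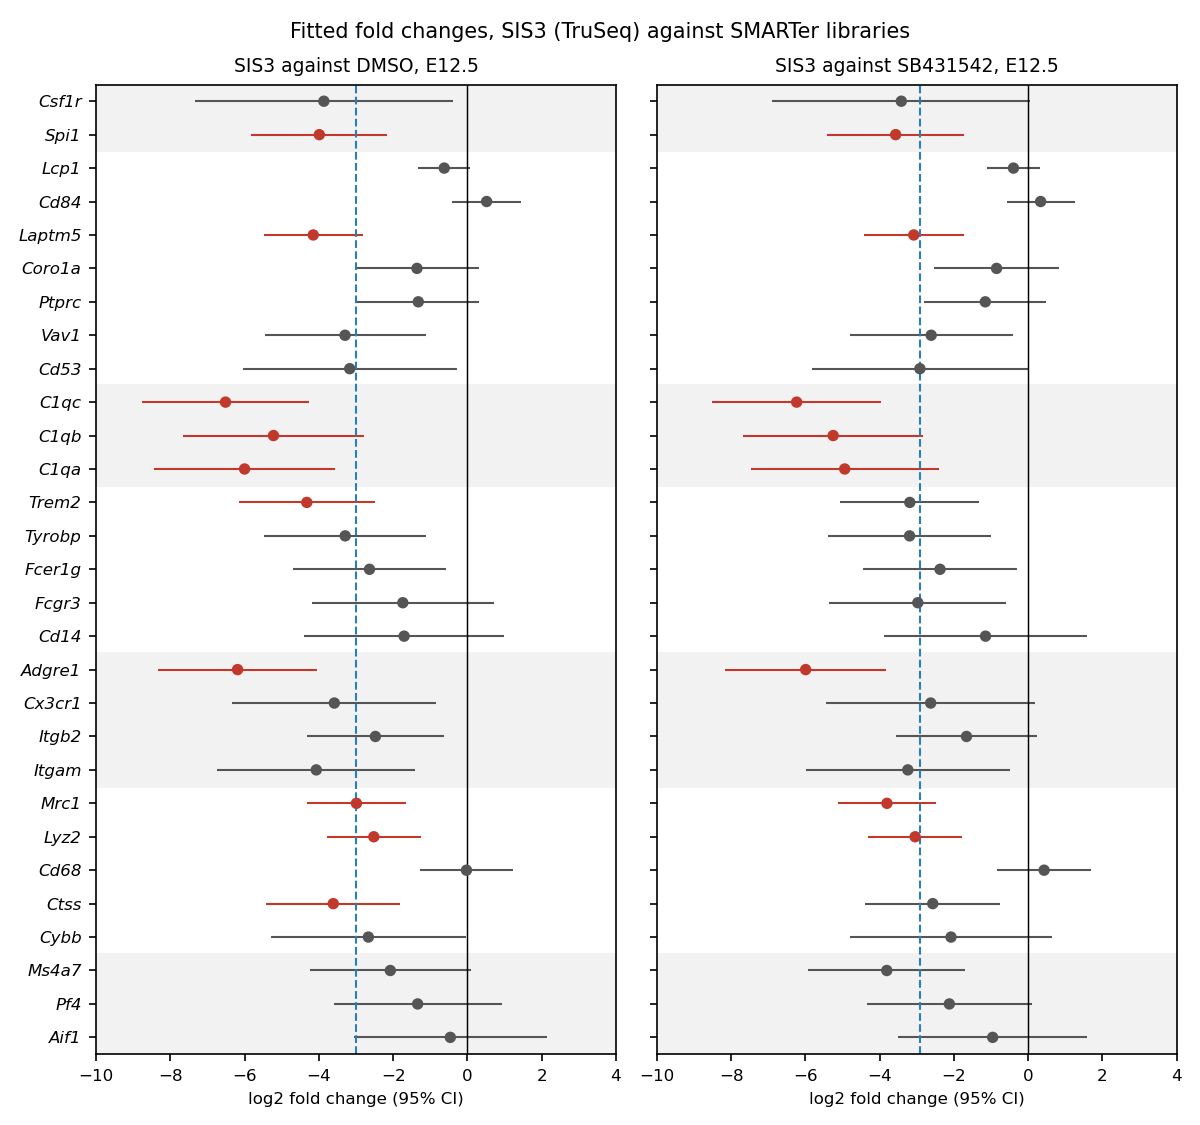
Fitted log2 fold change of each gene with its 95% confidence interval, SIS3 against DMSO on the left and SIS3 against SB431542 on the right, with called genes in red and the median of the 29 as a dashed line. The 10 called genes on the left and the 8 on the right all lie under 0, and Cd84 and Cd68 lie near it.

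The count of 10 depended on the fit. So did the share of all genes that were lower, which was 3.03% in the main fit. The count was 2 (C1qc, Laptm5), against 1.07% of all genes, when only the SIS3 and DMSO libraries were fitted. It was 4, against 1.3%, after trends with GC content and length were removed. With a mean of 5 CPM required it was 1 of 8, against 0.859%. With the 8 columns treated as replicates it was 23, where 20.3% of all genes were lower. Without a filter on low counts it was 15, against 3.92%, with Csf1r, Cx3cr1, Itgam, Tyrobp and Vav1 added. DESeq2 called 8 lower, against 2.35% of all genes: it left out Spi1, Lyz2 and Ctss and added Csf1r. The single SIS3 pair supplies every spread in the fit, and C1qc and Laptm5 were the genes called in each alternative that tested them.

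Other gene lists were read in the same libraries. Of 62 further macrophage genes 55 were tested, and 6 were lower and 0 higher in SIS3 than in DMSO, with a median log2 fold change of -1.16 (-1.07 with 5 genes at the bound that 3 counts allow). The 4 with the lowest adjusted p were Nckap1l, a regulator of actin in blood cells (6.68 CPM in DMSO against 0.334 and 0.212), Inpp5d, the lipid phosphatase SHIP1 (9.98 against 1.33 and 0.849), the scavenger receptor gene Stab1 (37.3 against 8.67 and 12.2) and the scavenger receptor gene Msr1 (126 counts against 1 and 0). Maf and Axl, abundant genes of this list that are known also from cells other than macrophages, stood at 208 and 191 CPM in DMSO and did not pass (adjusted p = 0.295 and 0.0808). Of 12 tested ligands that act on macrophages, only Tgfb1 was called, at 31.9 CPM in DMSO against 4.84 and 7.11 CPM (log2 fold change -2.48, SE 0.39, adjusted p = 0.00326). Stab1 and Tgfb1 are also known from endothelial cells. Csf1, the ligand of Csf1r and named here outside the naming rule, stood at 26.1 CPM in DMSO, 24.9 in SB431542, 21.1 in E13.5 and 30.7 and 26.1 CPM in the SIS3 libraries, a log2 fold change of 0.05 (interval -0.80 to 0.90). The other ligand, Il34, had 4 counts in DMSO and 0 in both SIS3 libraries.

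Osteoclasts are relatives of macrophages that resorb bone. Of 10 tested osteoclast genes, Acp5, the tartrate-resistant phosphatase (13.04 CPM in DMSO against 1.67 and 1.06), and Ctsk, the protease cathepsin K (39.6 against 10.3 and 8.17), were lower in SIS3 and 0 were higher. Mmp9, the most abundant of this list, stood at 134 CPM in DMSO, 60.2 in SB431542, 145 in E13.5 and 15.2 and 2.23 CPM in the SIS3 libraries, and did not pass (adjusted p = 0.528).

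Other blood and vessel cells were read from their markers. Of the T and NK cell (7 tested), B cell (4), neutrophil (4), megakaryocyte (7) and MHC class II (4) lists, 0 genes were called in SIS3 against DMSO by edgeR. The 8 B cell genes summed to 4.13 CPM in DMSO and the 14 T and NK cell genes to 7.52 CPM, with 3 and 5 of them at 0. The 12 neutrophil genes summed to 20.4 CPM in DMSO, 25.1 in SB431542, 49.1 in E13.5 and 40.2 and 34.7 CPM in the SIS3 libraries, most of it from Cxcr2 (15.3 CPM in DMSO, 36.4 and 31.1 in SIS3). The sums in the SIS3 libraries were 190% and 151% of DMSO for B cells, 149% and 159% for T and NK cells, 197% and 170% for neutrophils, 183% and 102% for megakaryocytes and 84.1% and 214% for MHC class II. All but 1 of these sums lay above DMSO, whereas the sum of the 29 genes lay under it. The median log2 fold changes of these lists were nevertheless all under 0. They were -1.35 for B cells (-0.73 with 1 gene at the bound that 3 counts allow) and -0.05 for T and NK cells. For neutrophils, megakaryocytes and MHC class II they were -0.05, -0.36 and -0.24. Most of the B cell sum was Ms4a1 (3.16 CPM in DMSO against 6.34 and 5.73), while Cd79b had 10 counts in DMSO and 0 in both SIS3 libraries. Of 5 tested mast cell genes Kit, which other cells also use, was lower (42.9 CPM against 15.51 and 14.96). Of 12 tested erythroid genes 1 was lower, Hba-a2, at 411 CPM in DMSO against 59.9 and 30.8, and the list's median was 0.11. Its near-identical copy Hba-a1 stood at 134 CPM against 409 and 173, so their counts cannot be read apart. Endothelial genes were low in the same libraries: 19 of 23 were lower and 0 higher, with a median of -2.76. They summed to 662 CPM in DMSO, 768 in SB431542 and 694 in E13.5, against 115 and 108 CPM in the SIS3 libraries (17.4% and 16.3% of DMSO), and none of the 23 stood at 0 in any library. Of these, Cdh5, the cadherin of endothelial junctions, had 125 CPM in DMSO against 9.84 and 9.33, and Kdr, a receptor for VEGF, had 106 against 8.84 and 8.27. Of 8 tested pericyte and mural genes 3 were lower, and their list stood at 57.6% and 60.9% of DMSO. Dental mesenchyme genes stood at 85.0% and 73.9% of DMSO, with 1 of 12 lower (Dlx2, log2 fold change -1.33). Dental and oral epithelium genes stood at 51.4% and 188%, on opposite sides of DMSO, with 0 of 11 tested called. What kit, depth or the loss of another cell type contributed to the values of the 29 genes was not tested.

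**Figure D3:**
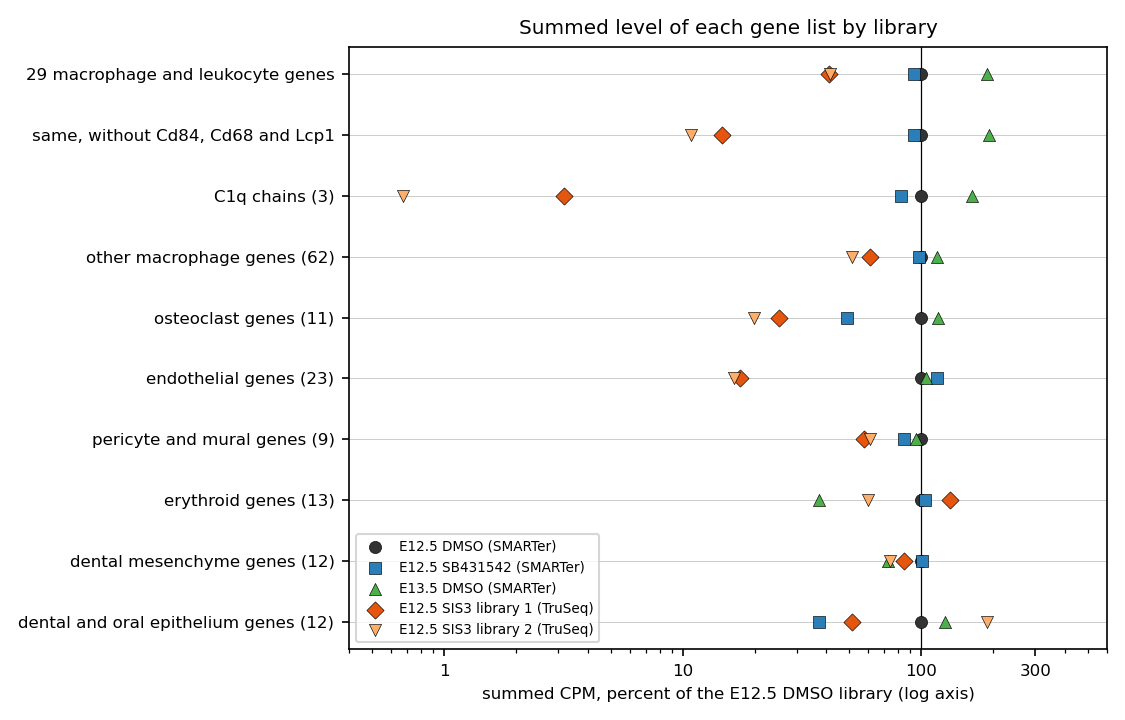
Summed CPM of each gene list in each library, as a percentage of the E12.5 DMSO library on a log axis. In the SIS3 libraries all 29 genes stand at 41.1% and 41.4% and endothelial genes at 17.4% and 16.3%. Dental mesenchyme genes stand at 85.0% and 73.9% there, and dental and oral epithelium genes at 51.4% and 188%. The row without Cd84, Cd68 and Lcp1 leaves out genes picked after their values were seen.

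The same SIS3 libraries were next set against SB431542, which acts on the receptors upstream of Smad3. This comparison shares its SIS3 libraries with the first and has the same difference in kit. Of the 29 genes 8 were lower in SIS3 (Adgre1, C1qa, C1qb, C1qc, Laptm5, Lyz2, Mrc1, Spi1) and 0 higher, against 1.95% and 0.499% of all genes. At an unadjusted p under 0.05 there were 17 and 0, against 9.63% and 4.71% of all genes. The median log2 fold change was -2.92 (-0.03 over all genes). The mannose receptor gene Mrc1 had a log2 fold change of -3.80 with an SE of 0.62 (edgeR, adjusted p = 0.00556). Lyz2 was at -3.04 (adjusted p = 0.0132), Laptm5 at -3.08 (adjusted p = 0.0176) and Spi1 at -3.57 (adjusted p = 0.0458). Trem2 (adjusted p = 0.0814) and Ctss (adjusted p = 0.16) did not pass here. Cd68 (0.43, interval -0.84 to 1.70) and Cd84 (0.34, interval -0.58 to 1.25) lay near 0 again. The count of 8 was 1 (Mrc1) with only the 2 groups fitted, against 0.788% of all genes. It was 2 (Adgre1, Mrc1) after trends with GC content and length were removed, against 0.726%. Without either E13.5 column it was 5 (Adgre1, C1qc, Laptm5, Lyz2, Mrc1), where 271 of 17616 and 251 of 17628 genes were lower.

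SB431542 itself was compared with DMSO within 1 kit, 1 library against 1, so the test has no replicate check of its own and takes its spread from the SIS3 pair. In edgeR's quasi-likelihood test 0 of the 29 genes were lower and 0 higher, as were 0% and 0% of all genes. At an unadjusted p under 0.05 there were also 0 and 0 among the 29, against 0.668% and 0.568% of all genes, and DESeq2 called 0. The median log2 fold change was -0.28, and 8 of the 29 lay above 0, against 50.2% of all genes. Ms4a7 had the largest difference, from 50 counts (1.61 CPM) in DMSO to 157 (5.57 CPM), a ratio of 3.45 with an exact interval of 2.50 to 4.85 for counting error alone. In the fit its log2 fold change was 1.73 with an interval of -0.50 to 3.96. Fcgr3 (1.16 to 2.84 CPM), Mrc1 (10.98 to 20.03 CPM), Pf4 (1.29 to 2.31 CPM) and Lyz2 (9.10 to 13.6 CPM) had higher values in SB431542. Trem2 (5.13 to 2.41 CPM), Laptm5 (12.53 to 6.18 CPM), C1qa (4.29 to 2.13 CPM), Ctss (7.13 to 3.59 CPM) and Cx3cr1 (4.13 to 2.20 CPM) had lower ones. The intervals of all these fitted changes include 0. The summed level of the osteoclast list was 48.9% of DMSO in SB431542, with 0 of 10 called, and that of the endothelial list 116%. The dental and oral epithelium list stood at 37.3%, with 0 of 11 called.

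The last comparison set E13.5 against E12.5, both in DMSO and with the same kit, again 1 library against 1. None of the 29 passed: 0 were lower and 0 higher, against 1.17% and 4.06% of all genes. At an unadjusted p under 0.05 edgeR had 0 lower and 4 higher (Adgre1, Cybb, Lcp1, Spi1), against 8.88% and 15.4% of all genes, and DESeq2 called 0. Most values were nevertheless on the higher side, since 23 of the 29 fitted changes were above 0 (49.8% of all genes) with a median of 0.75, and the sum of the 29 genes in E13.5 was 188% of that in E12.5. Cybb went from 40 counts (1.29 CPM) to 208 (11.9 CPM), a ratio of 9.19 with a counting interval of 6.53 to 13.2. Its log2 fold change was 3.22 (SE 1.14, interval 0.73 to 5.72, adjusted p = 0.12).

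Adgre1 stood at 5.07 CPM at E12.5 and 23.4 CPM at E13.5, a log2 fold change of 2.24 (interval 0.59 to 3.88, adjusted p = 0.102), with 42 and 115 counts in the E12.5 columns and 153 and 257 in those of E13.5. Spi1 stood at 3.94 and 13.1 CPM (1.76, adjusted p = 0.201) and Lcp1 at 47.6 and 92.9 CPM (1.00, adjusted p = 0.137). Other genes with higher values at E13.5 were Fcgr3 (log2 fold change 2.47), Cd53 (2.26), Itgb2 (1.60), Cx3cr1 (1.35), Trem2 (1.25) and Laptm5 (1.19). Tyrobp went the other way, from 109 counts (3.52 CPM) to 15 (0.856 CPM), a ratio of 0.243 with a counting interval of 0.132 to 0.419. Its log2 fold change was -2.00 (interval -4.40 to 0.40, adjusted p = 0.297). Trem2 and its adaptor gene Tyrobp thus had differences of opposite sign between the stages, and the difference between these genes was not tested. C1qa and C1qc had higher values at E13.5 (1.01 and 1.03) and C1qb did not (-0.12), so C1qb made up 32.2% of the C1q counts at E12.5 and 17.7% at E13.5.

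**Figure D4:**
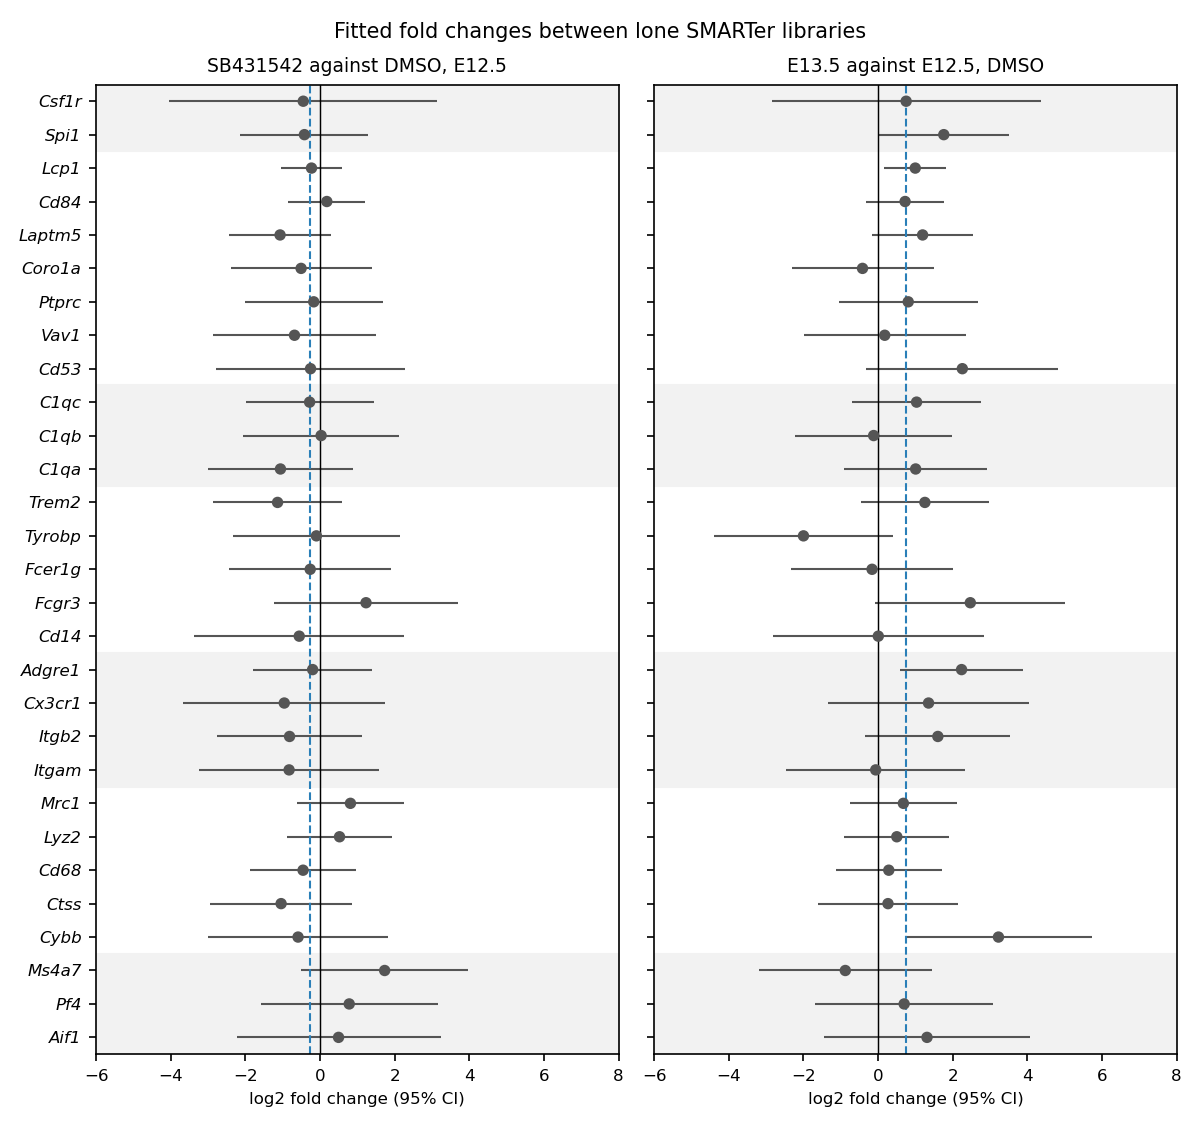
Fitted log2 fold change of each gene with its 95% confidence interval between single SMARTer libraries, SB431542 against DMSO on the left and E13.5 against E12.5 on the right, with the median of the 29 as a dashed line. None is called, the medians are -0.28 and 0.75, and Cybb lies highest and Tyrobp lowest on the right.

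Among genes of the other lists, the chemokine gene Ccl9 rose from 5.07 CPM at E12.5 to 46.9 CPM at E13.5, with a log2 fold change of 3.24 with an SE of 0.65 (edgeR, adjusted p = 0.014). It was the only one of 12 tested ligands to pass. The 55 further macrophage genes had 0 calls in either direction by edgeR and a median of 0.47, and the 23 endothelial genes had 0 calls and a median of 0.20. Of the neutrophil genes Ltf, encoding lactoferrin, was called higher at E13.5, where it stood at 6.91 CPM against 0 counts in DMSO at E12.5.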

How the data were processed

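RNA-seq was performed on whole molar tooth germs. The authors deposited estimated counts per gene as whole numbers, not scaled between libraries, in 1 table of 8 columns. Per the submitters' processing notes the build was mm10 and the tools were DESeq2, deepTools, HISAT2, Salmon and SAMtools, with no role or version stated. The sources used here do not give the annotation or the counting options. Salmon shares out ambiguous reads by estimation. Per the labels total RNA was extracted, and whether counting used strand is not stated.

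Columns were matched to samples by name, and paired columns of 3 groups were summed, leaving 5 libraries of 5995709 to 30975010 counts. Genes kept by filterByExpr (19022) were tested with edgeR 4.0.16 (R 4.3.3): TMM scaling, robust quasi-likelihood fit, group as the only factor, p-values adjusted by Benjamini-Hochberg per comparison and called under 0.05. Only the SIS3 pair leaves a residual degree of freedom (1), to which the fit adds a prior with a median of 12.49, and the common biological coefficient of variation was 29.3%. The fit assumes that single libraries vary as the SIS3 pair does, and p-values measure only that spread, which may be technical. CPM uses library totals. Ratios of counts carry exact 95% intervals for counting error only. Shared 31-base sequences, lengths and positions come from GENCODE M21 (GRCm38), promoters from RefSeq. The scripts were tested on simulated counts. Alternatives were other scaling (DESeq2 size factors, totals only), DESeq2 1.42.0, no filter, a mean of 5 CPM, all 8 columns with and without a replicate block, only the groups compared, removal of GC and length trends, and each column left out. The 29 genes and all lists were chosen with earlier results of these data known. All 29 are named. From each other list the text names up to 4 called genes with the lowest adjusted p and the 3 highest in E12.5 DMSO. A gene that this rule names is not reported here. By the median, the paired columns of 3 groups differed by about the noise of a random split of reads for genes with 1 transcript, and by more for other genes. By the mean, genes with 1 transcript also differed by more than that noise. The paired columns were treated as parts of 1 library, so the replicate numbers do not pair samples.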

Additional observations from a re-analysis of the deposited data

How the results depend on the processing

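The number of the 29 genes called lower in SIS3 than in DMSO was 10, against 3.03% of all genes. It was 1 of 8 tested with a mean of 5 CPM required and 2 of 28 with only the groups compared. After GC and length trends were removed it was 4. With the 8 columns as replicates it was 23, and 1 gene was higher (Cd84). Of all genes, 0.859%, 1.07%, 1.3% and 20.3% were lower in these fits in that order. With the 8 columns 17.8% were higher. With the replicate block on the 8 columns it was 20, again with 1 higher, against 18.9% and 16% of all genes. Paired columns of 3 groups were treated as parts of 1 library, so same-numbered columns share only a number. DESeq2 called 8 lower, without Spi1, Lyz2 and Ctss and with Csf1r, against 2.35% of all genes. The fit without a filter called 15 lower, against 3.92%, adding Csf1r, Cx3cr1, Itgam, Tyrobp and Vav1. In SIS3 against SB431542 the 8 lower genes were 0 with a mean of 5 CPM and 1 with only the groups compared. They were 2 after GC and length trends were removed, 21 with the 8 columns and 19 with the block. Of all genes, 0.567%, 0.788%, 0.726%, 17.9% and 16.1% were lower in these fits in that order. Without a filter Csf1r, Ctss, Ms4a7 and Trem2 were called lower as well, against 2.82% of all genes. In the stage comparison the 8 columns called 15 genes higher and 1 lower (Tyrobp), against 29.6% and 25.3% of all genes. The block called 13 higher and 1 lower, against 28.2% and 24%. The fit without a filter called 1 higher (Cybb), against 5.29%. In SB431542 against DMSO the 8 columns called 1 higher (Ms4a7), against 0.535% of all genes. Fewer genes or samples enter the 5 CPM and group-only fits. For the other alternatives the cause was not tested. Leaving out 1 column at a time gave 9 to 10 genes lower against DMSO and 5 to 8 against SB431542. The median log2 fold change of the 29 ran from -2.99 to -2.71 and from -3.28 to -2.62 in these comparisons, and it was -2.75 against DMSO with a mean of 5 CPM. A fit without a SIS3 library has no test. Some fitted changes near 0 changed sign. In SIS3 against DMSO, Cd68 was 0.017 with DESeq2 size factors, 0.047 with totals only, 0.10 without GC and length trends and 0.017 in DESeq2. At E13.5, Cd14 was -0.026 with totals only and -0.032 without a filter, and without GC and length trends Itgam was 0.065 and C1qb 0.12. Over the fits without 1 column, Aif1 in SIS3 against DMSO ran from -1.14 to 0.91. In SB431542 against DMSO such ranges were -0.75 to 0.71 for Adgre1, -0.19 to 1.86 for Aif1, -0.17 to 0.20 for C1qb, -0.99 to 0.23 for Cd53, -0.35 to 0.048 for Ptprc and -0.37 to 0.24 for Tyrobp. At E13.5 they were -0.39 to 0.12 for C1qb, -0.31 to 0.29 for Cd14, -0.29 to 0.0055 for Fcer1g and -0.24 to 0.19 for Itgam. None of these was called in its comparison. Depth limits the SIS3 side most, since 17 and 13 of the 29 genes had 3 or fewer counts there.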
